A study of Mus musculus with 6 samples.

Results

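The genes of oxidative phosphorylation were examined in the cerebral cortex of mice in which Fabp7, a fatty acid-binding protein of astrocytes, was knocked down. Members were taken by symbol: subunits of complex I (the Nduf genes), complex II (Sdh), complex III (Uqcr, Cyc1 and mt-Cytb), complex IV (Cox and mt-Co) and complex V (Atp5 and mt-Atp), with pseudogenes left out and at least 10 reads in at least 3 of the 6 libraries. Of 49315 genes in the files, 108 matched by name, 6 of these were pseudogenes, and 6 others did not reach the read minimum. This left 96 members, 83 encoded in the nucleus and 13 in the mitochondrial genome. Complex I had 42 members, complex II 4, complex III 10, complex IV 21 and complex V 19. All 96 also passed the expression filter of the test, which left 17185 genes.

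The study had 6 bulk RNA-seq libraries, 3 per group. All came from cortex of wild-type mice that received an AAV-PHP.eB vector into the retro-orbital sinus at 21 days of age, carrying GFP and an shRNA behind a Gfap promoter, a promoter of astrocytes. The control group (shScr-LPS) carried a scrambled shRNA and the other group (shFabp7-LPS) an shRNA against Fabp7. Both groups were injected with lipopolysaccharide (LPS), a bacterial cell wall component, at 1 mg/kg once a week for 3 weeks, starting at 4 months, and cortex was collected 24 h after the final injection. No group without LPS was analysed here, so every comparison is of the knockdown under LPS. The shRNA was directed to astrocytes while RNA came from all cortical cells, and in such samples fewer cells of a type and less RNA per cell cannot be told apart.

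Oxidative phosphorylation takes place in the inner mitochondrial membrane. Complexes I and II pass electrons from NADH and succinate to ubiquinone, complex III passes them to cytochrome c, and complex IV to oxygen. Complexes I, III and IV pump protons, and complex V, the ATP synthase, uses the gradient to make ATP. Complex II is encoded by nuclear genes alone, while the other complexes mix nuclear subunits with a few core subunits encoded by mitochondrial DNA, which is transcribed from both strands as long precursors that are then cut into single RNAs. In cortex most of the ATP serves neuronal signalling, so these transcripts are abundant in neurons.

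Libraries held 16914012 to 18991235 counted reads. Fabp7 had 484, 285 and 290 reads in the 3 shScr libraries and 93, 41 and 66 in the 3 shFabp7 libraries, so the groups followed their labels. Sex was not given by the labels and was read from Xist and Y-linked genes: 2 of the 3 shScr libraries and 1 of the 3 shFabp7 libraries were male. In shFabp7 library 2, read as female, Y-linked reads stood at 6% of the male mean, against under 1% in the other female libraries. The first shScr library stood apart in markers of excitatory neurons, with a mean log2 CPM (read counts scaled to a common library size) of 6.44 against 7.32 to 7.74 in the other libraries. The marker mean was also higher in every shFabp7 library (7.54 to 7.74) than in any shScr library (6.44 to 7.50). The third shScr library was the highest in markers of hippocampus and of choroid plexus and ependyma, as given below.

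Several mitochondrial genes have near-perfect copies in the nuclear genome, and their sequences are shown first because they bear on what the counts of the 13 mitochondrial members measure. A stretch of mouse chromosome 1 (GRCm38) holds, on its minus strand, annotated copies of mt-Co2, mt-Atp6, mt-Co3, mt-Nd3 and mt-Nd4l, of the first part of mt-Nd4 and of the last part of mt-Co1. Below are 60 bases of mt-Co3 (mitochondrial genome positions 8707 to 8766) with its copy Gm28437 (chr1:24613812-24613871), the first 60 bases of mt-Nd3 (9459 to 9518) with its copy Gm28438 (chr1:24613060-24613119), and bases 1054 to 1113 of mt-Co1 (6381 to 6440) with the start of its copy Gm29216 (chr1:24616138-24616197). All run 5′ to 3′ on the coding strand, and capitals mark bases that differ within a pair.
mt-Co3: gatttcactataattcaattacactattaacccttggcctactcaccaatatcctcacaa
Gm28437: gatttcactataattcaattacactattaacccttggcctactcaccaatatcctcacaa
mt-Nd3: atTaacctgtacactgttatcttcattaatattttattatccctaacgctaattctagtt
Gm28438: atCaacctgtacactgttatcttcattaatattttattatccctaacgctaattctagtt
mt-Co1: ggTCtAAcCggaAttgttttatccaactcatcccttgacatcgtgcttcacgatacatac
Gm29216: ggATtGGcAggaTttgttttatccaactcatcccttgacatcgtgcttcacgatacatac
The mt-Co3 pair is identical over these bases and over all 783 bases of the copy. The mt-Nd3 pair differs at 1 of 345 aligned bases. The mt-Co1 pair differs at 6 of 492 aligned bases, all of them within the stretch shown, and is identical from there on.

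Counted reads of the mitochondrial members fell into 2 sets along this line. For mt-Co2, mt-Co3, mt-Atp6, mt-Nd4l and mt-Nd3, between 98.0% and 99.9% of all 50-base windows of the gene were found unchanged in the chromosome 1 copy. These 5 genes had 493, 936, 450, 531 and 3328 reads over all 6 libraries. mt-Co1, with 28.7% of its windows in its copy on chromosome 1 and 51.1% when the copies Gm11512 and Gm13340 are added, had 1631542 reads, and mt-Nd4, with 62.2%, had 255405. The genes with no window in those copies included mt-Cytb (723289 reads), mt-Nd5 (538603), mt-Nd1 (472418), mt-Nd2 (360169) and mt-Nd6 (105398), the one subunit read from the other strand. The exception was mt-Atp8, which had 198 reads and no window in an annotated copy, in a place where the chromosome 1 annotation has a gap between Gm28661 and Gm10925. Apart from the copies named so far, mt-Nd2 had 8.19% of its windows in Gm13339, and mt-Nd5 had 7.61% in Gm11407 and Gm4076. mt-Co2 also shared windows with Gm13341, which took its share to 100%, and mt-Atp6 with AC124578.3. The sources used here do not say how reads that fit more than 1 place were counted, and the part of this in the low counts was not tested. The chromosome 1 copies themselves had few reads, for example 93 to 119 per library for Gm10925 and 10 to 21 for Gm28438. Levels are for this reason not compared between mitochondrial genes as levels of transcript, and the 6 genes with few reads are described apart from the 7 with many.

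**Figure D1:**
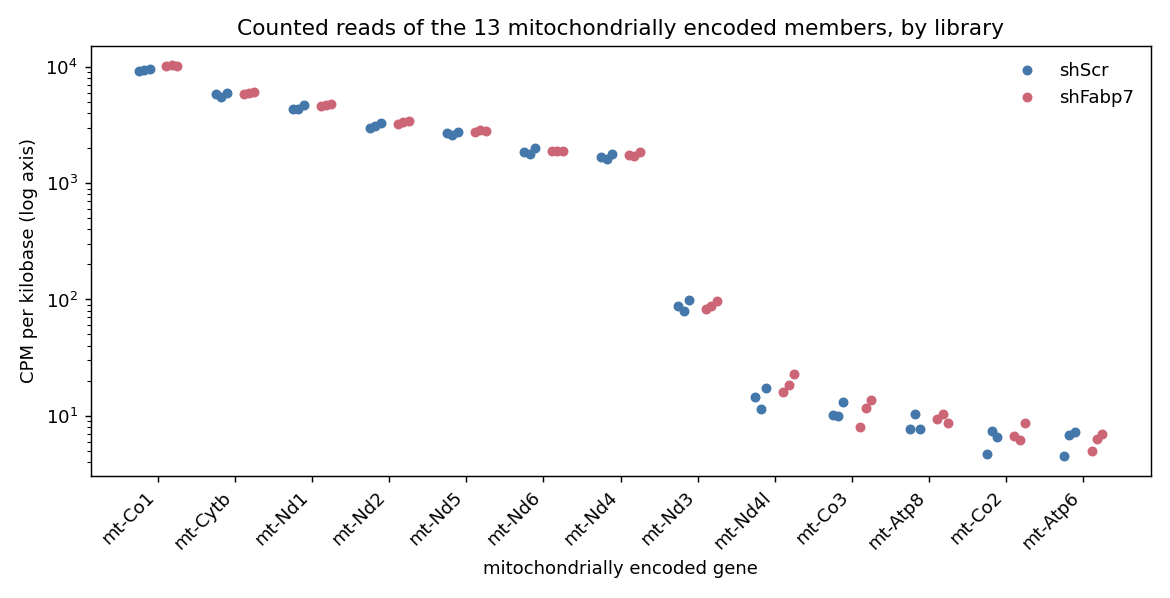
CPM per kilobase of gene (log axis) for the 13 mitochondrially encoded members in each of the 6 libraries, blue for shScr and red for shFabp7. The 7 genes on the left, from mt-Co1 to mt-Nd4, lie far above the 6 on the right, of which 5 have near-complete copies on chromosome 1 and none exceeds 100.

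Among the 7 mitochondrial genes with at least 10000 reads in every library, all had log2 fold changes above 0 (shFabp7 relative to shScr) and 0 passed the test. The test was edgeR's quasi-likelihood test with Benjamini-Hochberg adjustment over all 17185 genes and a threshold of 0.05, by which 20 genes (0.116%) passed in all. The largest value was that of mt-Co1, the catalytic core subunit of complex IV that holds its oxygen-binding site (MT:5328-6872). It had 14258, 14522 and 14948 CPM in the shScr libraries and 15762, 15908 and 15874 CPM in the shFabp7 libraries. The shFabp7 libraries were all above the shScr libraries. The log2 fold change was 0.12 ± 0.06 (SE), with a 95% interval from -0.01 to 0.25 and an adjusted p of 0.308 in edgeR's test. Leaving out any 1 library gave 0.11 to 0.14, and scaling by total counts alone gave 0.07.

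The other abundant mitochondrial genes had smaller values, and their groups overlapped. mt-Nd2, a core subunit of the membrane arm of complex I, had 3076, 3211 and 3421 CPM in shScr and 3382, 3478 and 3568 CPM in shFabp7, and its log2 fold change was 0.10 ± 0.07 (SE). For mt-Cytb, the cytochrome b of complex III, the values were 6633, 6351 and 6842 CPM against 6754, 6833 and 7009 CPM, a log2 fold change of 0.05 ± 0.06. In both genes the second or first shScr library was the lowest and the third shFabp7 library the highest. The complex I subunits mt-Nd1, mt-Nd5 and mt-Nd4 had log2 fold changes of 0.07, 0.06 and 0.06, and mt-Nd6 had 0.01, each with an SE of 0.06 or 0.07. For mt-Nd6 the shFabp7 libraries, at 984 to 989 CPM, lay inside the shScr range of 928 to 1043 CPM. The 95% intervals of all 7 genes lay within a 1.2-fold change in either direction.

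Of the 6 mitochondrial genes with few reads, 1 (mt-Nd3) had an interval within 1.2-fold and 3 had one within 1.5-fold. The log2 fold changes of the 6 ran from -0.01 (mt-Atp6, the proton-channel subunit of complex V) to 0.40 (mt-Nd4l, a small membrane subunit of complex I). mt-Nd4l had 79, 64 and 94 reads in shScr and 79, 89 and 126 in shFabp7, so the groups overlapped, and its 95% interval ran from -0.07 to 0.86. mt-Nd3, also of complex I, had 0.01, and mt-Co2 and mt-Co3, the core partners of mt-Co1, had 0.20 and 0.01. mt-Atp8, of the complex V membrane part, had 0.13, with an interval from -0.42 to 0.68. None of the 6 passed the test.

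Summed over the 13 genes, mitochondrial transcripts stood at 36978 ± 1214 CPM (SD, n = 3) in shScr and 39298 ± 538 CPM in shFabp7 after TMM scaling. The shScr libraries spanned 36214 to 38378 CPM and the shFabp7 libraries 38760 to 39835 CPM, so the groups did not overlap on this scale. As plain shares of all counted reads the groups did overlap: 3.75%, 3.63% and 3.88% in shScr and 3.82%, 3.82% and 3.93% in shFabp7. The median log2 fold change of the 13 was 0.06, with 12 of 13 above 0, beside -0.01 over all 17185 genes. All but mt-Nd6 are read from the same strand as shared precursors, and all were counted in the same libraries. The count of 12 is thus not 12 separate observations. Over all 20 other settings run, the median stayed between 0.01 and 0.11.

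Across the 83 nuclear members the median log2 fold change was -0.01, with 40 above 0 and 43 below, and 0 passed the test. Their summed level was 8021 ± 208 CPM (SD, n = 3) in shScr and 8019 ± 178 CPM in shFabp7. As shares of counted reads they took 0.808%, 0.802% and 0.834% in shScr and 0.803%, 0.787% and 0.771% in shFabp7, which overlapped by 1 library. Over all 96 members, 2 had an unadjusted p under 0.05, where 16.8% of all genes did. DESeq2 called 0 members, where it called 4.49% of the genes it tested. Groups did not overlap in 4 members that were higher in shFabp7 (11.4% of all genes) and in 10 that were lower (11.5% of all genes).

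Most intervals were narrow. The 95% interval lay within a 1.5-fold change in either direction for 87 of 96 members (90.6%), against 61.3% of all genes and 89.5% of the 8197 genes with a mean of at least 20 CPM. It lay within a 1.2-fold change for 75 members (78.1%), against 23.1% of all genes and 45.8% of those 8197. The share within 1.5-fold was thus near that of abundant genes in general. The median size of the log2 fold change, signs set aside, was 0.04 for the members, 0.14 for all genes and 0.10 for the 8197 abundant genes. The 9 members with wider intervals were the 6 rarely expressed complex IV isoforms described below and 3 mitochondrial genes with few reads.

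**Figure D2:**
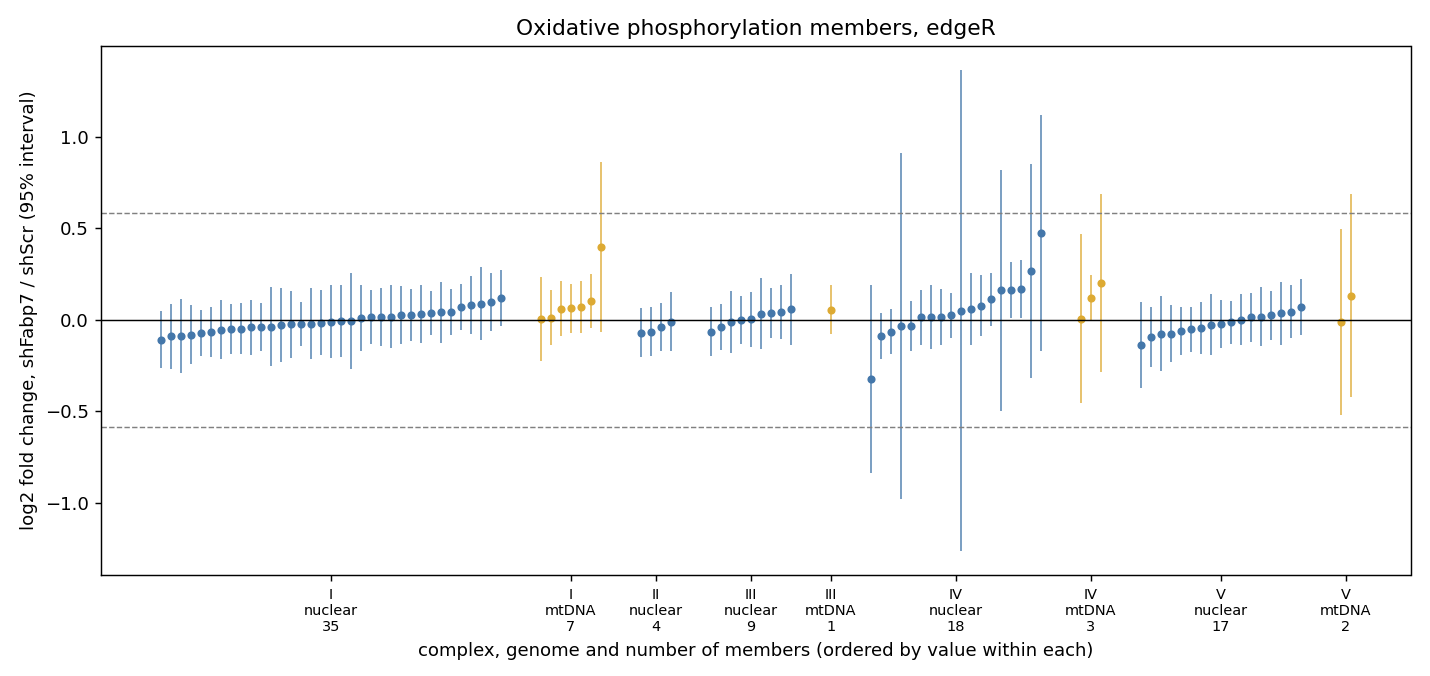
Log2 fold change of each of the 96 members (points) with its 95% interval (lines), by complex and genome, ordered by value within each; dashed lines mark a 1.5-fold change. Values lie close to 0 in every complex, 87 of 96 intervals stay between the dashed lines, and the wide ones belong to rarely expressed or rarely counted genes.

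Complex I, which oxidises NADH, had 35 nuclear members, with 15 above 0 and 20 below and a median of -0.01. All 35 intervals lay within 1.5-fold. The highest value of these was that of Ndufa8, an accessory subunit on the intermembrane side, with 64.8, 68.1 and 73.8 CPM in shScr and 72.7, 78.6 and 72.9 CPM in shFabp7. The groups overlapped, and the log2 fold change was 0.12 ± 0.07 (SE). The lowest was that of Ndufa5, an accessory subunit of the matrix arm, with 60.2, 57.8 and 64.9 CPM against 59.1, 57.0 and 53.5 CPM, also overlapping, at -0.11 ± 0.07. Ndufb9, a membrane-arm subunit with the highest level per kilobase of the gene length in the files (129 CPM per kilobase), had 0.03 ± 0.06.

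The 7 nuclear core subunits of complex I, which carry the flavin and the iron-sulfur clusters or bind ubiquinone, had a median of -0.02 and the 28 accessory subunits -0.01. Chosen after their values were seen, Ndufs3 was the one core subunit higher in all 3 shFabp7 libraries, at 64.0 to 65.7 CPM against 60.9 to 63.1 CPM. Ndufv2, an iron-sulfur subunit of the NADH-oxidising module, was lower in all 3, at 71.1 to 73.1 CPM against 73.7 to 77.2 CPM. Their log2 fold changes were 0.07 and -0.07, and neither passed edgeR's test (adjusted p = 0.554 and adjusted p = 0.540). Core subunits of 1 complex thus stood on both sides of 0 by like amounts.

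Complex II, succinate dehydrogenase, had 4 of 4 subunits below 0 and a median of -0.05. Sdha, the flavin-bearing subunit that binds succinate, had 436, 438 and 424 CPM in shScr and 428, 401 and 408 CPM in shFabp7. The first shFabp7 library lay above the third shScr library, so the groups overlapped, and the log2 fold change was -0.07 ± 0.06 (SE). Sdhb, the iron-sulfur subunit, had -0.04 ± 0.06, and Sdhd, a membrane anchor, -0.01 ± 0.07. In Sdhc, the other membrane anchor, named after its values were seen, the groups did not overlap: 60.2 to 60.8 CPM in shScr and 56.2 to 60.03 CPM in shFabp7. None of the 4 passed the test, and the median of the complex stayed below 0 in all 19 other settings run, from -0.10 to -0.03.

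Complex III had 9 nuclear members, with 5 above 0 and 4 below, a median of 0.00, and 0 whose groups did not overlap. Cyc1, the cytochrome c1 that hands electrons to cytochrome c, had 88.9, 89.6 and 92.2 CPM in shScr and 92.8, 92.0 and 85.4 CPM in shFabp7. The log2 fold change was -0.00 ± 0.06 (SE), and the groups overlapped. The extremes of the complex were Uqcrh, the hinge protein beside Cyc1, at -0.07 ± 0.06, and Uqcrq, a small structural subunit, at 0.06 ± 0.09. Uqcr11, another small subunit, had 0.04 ± 0.07. All 9 intervals lay within 1.2-fold.

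Complex IV, cytochrome c oxidase, held the widest spread. Of its 18 nuclear members 13 were above 0, and the median was 0.04. Scaling by total counts alone turned that median to -0.01, as did excitatory neuron markers as a covariate. Since the mean of these markers separated the groups, the fit with them cannot tell markers and group apart. The 12 widely expressed members had a median of 0.02, and all 12 intervals lay within 1.5-fold. The 2 members with an unadjusted p under 0.05 were both here: Cox6a1 (chr5:115345642-115348981, minus strand), the common form of subunit VIa, and Cox8a (chr19:7215158-7217616, minus strand), the common form of subunit VIII.

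Cox6a1 had 221, 244 and 258 CPM in shScr and 276, 275 and 262 CPM in shFabp7. Cox8a had 156, 175 and 178 CPM in shScr and 192, 195 and 181 CPM in shFabp7. In both genes the first shScr library was the lowest and the groups did not overlap, by a small margin. The log2 fold changes were 0.17 ± 0.07 (SE) for Cox6a1 and 0.16 ± 0.07 for Cox8a. Neither passed edgeR's test after adjustment (adjusted p = 0.277 and adjusted p = 0.273). The same first shScr library was the lowest in excitatory neuron markers, and without it the values were 0.11 and 0.11. With the mean of those markers as a covariate they were 0.07 and 0.06. That mean itself separated the groups, at 6.44 to 7.50 in shScr and 7.54 to 7.74 in shFabp7. A fit with it thus cannot tell markers and group apart, and the part of the markers in these values was not tested.

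Other abundant complex IV subunits were closer to 0. Cox4i1, the common form of subunit IV and the member with the highest level per kilobase of the coding transcript among nuclear members, had 355, 380 and 396 CPM in shScr and 400, 377 and 366 CPM in shFabp7. The 2 sets covered nearly the same range, and the log2 fold change was 0.02 ± 0.07 (SE). Cox6b1, on the intermembrane side, had -0.03 ± 0.06, Cox7a2 0.06 ± 0.09, and Ndufa4, first described as a complex I protein and now counted as a complex IV subunit, 0.03 ± 0.05. Chosen after their values were seen, Cox5b, the zinc-binding subunit, and Cox7a2l, a factor that joins complexes III and IV, were lower in all 3 shFabp7 libraries, with log2 fold changes of -0.07 and -0.09. Members of complex IV in which the groups separated thus lay on both sides of 0.

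Complex IV has isoforms that replace a common subunit in certain tissues or conditions, and 6 pairs were compared. The rare forms were Cox4i2 (lung and low oxygen), Cox6a2, Cox7a1 and Cox8b (heart and skeletal muscle), Cox6b2 (testis) and Ndufa4l2 (low oxygen). In each pair the common form was far more abundant per kilobase. On the lengths in the files Cox4i1 stood at 245 CPM per kilobase against 1.18 for Cox4i2, Cox6a1 at 365 against 5.58 for Cox6a2, and Cox8a at 329 against 1.44 for Cox8b. Cox6b1 stood at 123 against 1.73 for Cox6b2, Cox7a2 at 62.4 against 3.41 for Cox7a1, and Ndufa4 at 92.2 against 2.45 for Ndufa4l2. No pair changed places in any library.

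**Figure D3:**
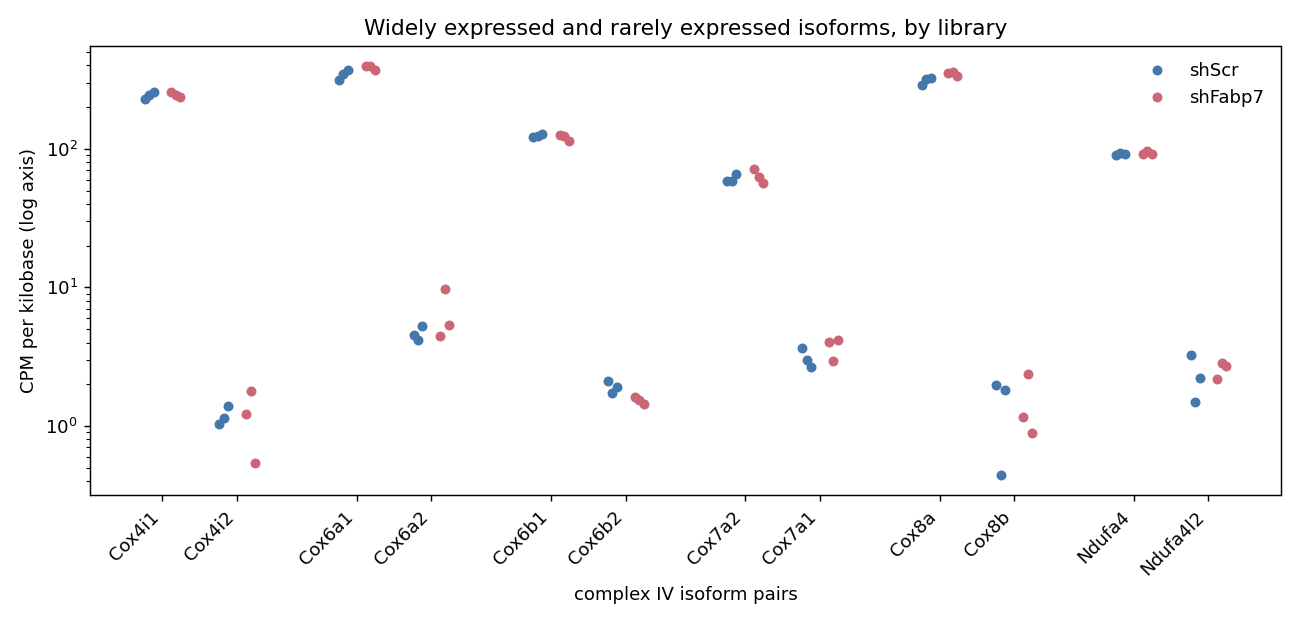
CPM per kilobase (log axis) of 6 pairs of complex IV isoforms, the common form left and the rare form right in each pair, with 1 point per library (blue shScr, red shFabp7). Each common form lies above its rare form in all 6 libraries, and the rare forms scatter more between libraries.

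None of the 6 rare forms had an interval within 1.5-fold. Cox6a2 had 57, 53 and 66 reads in shScr and 51, 108 and 68 in shFabp7, with 1 high library and overlapping groups. Its log2 fold change of 0.47 ± 0.29 (SE) was the highest of all members, and without shFabp7 library 2 it was 0.08. Cox6a2 is known to be expressed in parvalbumin interneurons. Pvalb, their marker, named after its values were seen, had 30.9, 56.0 and 45.6 CPM in shScr and 63.5, 89.9 and 70.1 CPM in shFabp7, with the same library 2 the highest. Of the 8 markers of these interneurons, 3 were above 0 and 5 below, and their summed level was 982 to 1364 CPM in shScr and 1040 to 1167 CPM in shFabp7. The log2 fold changes of the 8 ran from -1.02 to 0.75, and 2 had an unadjusted p under 0.05 (16.8% of all genes). edgeR called 0 of the 8 (0.116% of all genes) and DESeq2 1, higher (4.49% of the genes it tested). The part of these cells in the Cox6a2 value was not tested.

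Cox6b2 had 43, 36 and 39 reads in shScr and 30, 28 and 30 in shFabp7, so all 3 shFabp7 libraries were lower. Its log2 fold change of -0.32 ± 0.23 (SE) was the lowest of all members, and it did not pass edgeR's test (adjusted p = 0.509). Cox7a1 had 36, 30 and 26 reads against 36, 26 and 42, and Ndufa4l2 had 57, 27 and 39 against 35, 45 and 49, both overlapping, at 0.27 ± 0.26 and 0.16 ± 0.29. Cox4i2 and Cox8b were just inside the read minimum. Cox8b had 13, 3 and 12 reads in shScr and 7, 14 and 6 in shFabp7, and Cox4i2 15, 17 and 20 against 16, 23 and 8. The 6 genes left out by the minimum were well below it, with at most 5 reads in any library: Cox7b2 had 12 reads over all 6 libraries, Cox6c2 and Ndufs6b 10 each, Ndufb4c 7, Cox8c 1 and Ndufa11b 0.

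Complex V had 17 nuclear members, with 7 above 0 and 10 below and a median of -0.02. Atp5b, the catalytic beta subunit, and Atp5a1, the alpha subunit, form the F1 head. Atp5b had 904, 947 and 906 CPM in shScr and 928, 944 and 911 CPM in shFabp7, with overlapping groups and a log2 fold change of 0.01 ± 0.06 (SE). Atp5a1 had 697, 697 and 709 CPM in shScr and 676, 672 and 668 CPM in shFabp7. All 3 shFabp7 libraries were lower for Atp5a1, at a log2 fold change of -0.06 ± 0.06 that did not pass edgeR's test (adjusted p = 0.631). Partners of 1 assembly thus differed in whether their groups overlapped, and their values were not tested against each other.

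The highest value among the nuclear members of complex V was that of Atp5d, the delta subunit of the central stalk, at 0.07 ± 0.07 (SE). The lowest was that of Atp5s, factor B, which works with the enzyme without being 1 of its subunits, with 13.4, 13.5 and 15.1 CPM in shScr and 12.3, 12.5 and 13.4 CPM in shFabp7. Its shFabp7 libraries were all just below the shScr libraries, with -0.14 ± 0.10. The 5 subunits of the F1 head and central stalk had a median of -0.01 and the 12 others -0.03. All 17 intervals lay within 1.5-fold.

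Levels per kilobase differed less between complexes than within them. Per kilobase of the transcript with the longest coding sequence, the median nuclear member stood at 64.2 CPM for complex I, 61.0 for complex II, 96.2 for complex III, 96.6 for complex IV and 120 for complex V. Within complex IV alone, nuclear members ranged from 1.28 CPM per kilobase (Cox4i2) to 509 (Cox4i1). The lengths in the files join all exons of a gene and were over 1.5 times that transcript for 43 members, so these levels depend on the length used. For 7 nuclear members more than 50% of 50-base windows also occur in another gene, most often a processed copy, and 35 of the 96 share exon bases with a neighbour, so their counts are less certain.

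Library by library, the medians of complexes I, III and V were all highest in the third shScr library. Centred on the mean of the 6 libraries, the median of all 83 nuclear members was -0.03, -0.01 and 0.06 in shScr and 0.02, 0.02 and -0.04 in shFabp7 (log2 CPM). The third shScr library was the highest and the third shFabp7 library the lowest, so the spread within each group was wider than the distance of 0.01 between the group means. The 7 abundant mitochondrial genes had -0.04, -0.08 and 0.03 in shScr and 0.01, 0.03 and 0.06 in shFabp7, where the third library was the highest of each group. The third shFabp7 library was thus low for nuclear and high for mitochondrial members.

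**Figure D4:**
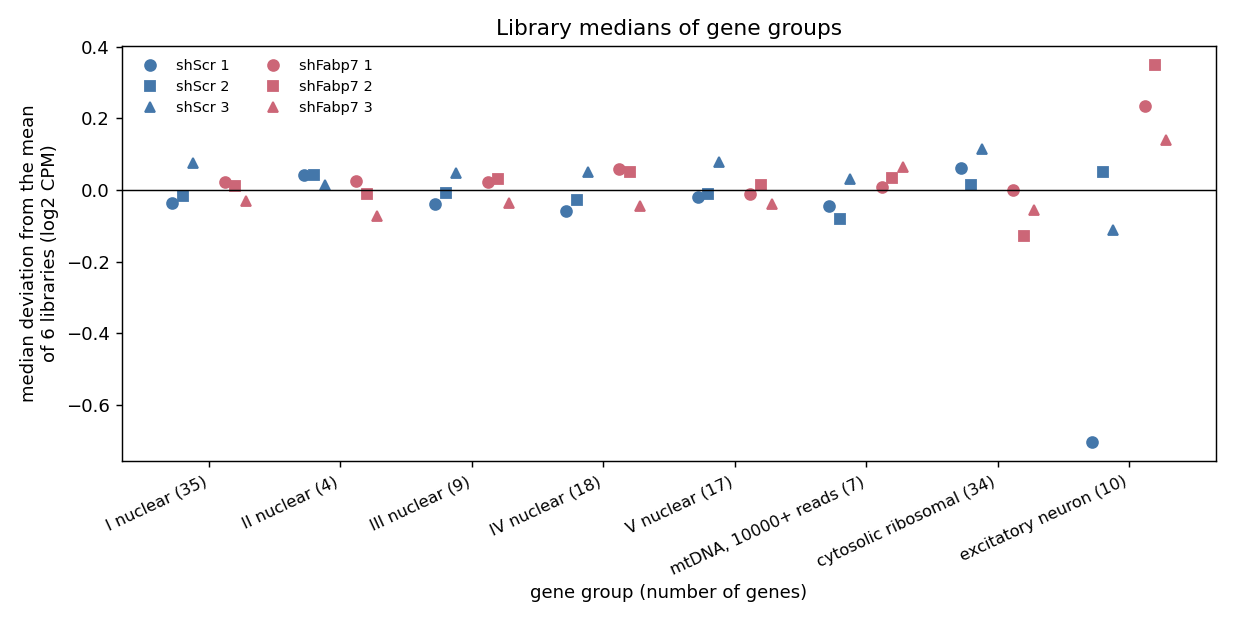
Median deviation from the mean of the 6 libraries (log2 CPM) for the nuclear members of each complex, the 7 abundant mitochondrial genes, 34 cytosolic ribosomal protein genes and 10 excitatory neuron markers; blue shScr, red shFabp7, with circle, square and triangle for libraries 1, 2 and 3. The members lie between -0.08 and 0.08 in every library, while the first shScr library lies at -0.70 for the neuron markers.

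Cell type markers and ribosomal protein genes are given beside the members for the same libraries. Of all genes, 16.8% had an unadjusted p under 0.05, edgeR called 0.116%, and DESeq2 called 4.49% of those it tested. Excitatory neuron markers were above 0 in 10 of 10, with a median of 0.44, 0 called by edgeR and 3 (higher) by DESeq2. Without the first shScr library 8 of 10 were above 0, with a median of 0.26 and 1 called by edgeR, and without the second shScr library the median was 0.65 with 2 called. A sample of 34 cytosolic ribosomal protein genes, short and abundant transcripts like most members, was below 0 in 34 of 34 with a median of -0.12 and 0 called by edgeR or DESeq2, while the nuclear members had 43 of 83 below. Microglial markers were below 0 in 7 of 8 with a median of -0.24, 0 called by edgeR and 2 (lower) by DESeq2. Hippocampal markers were below 0 in 6 of 8, with a median of -0.68, 0 called by edgeR and 2 (1 higher, 1 lower) by DESeq2. Of 5 choroid plexus and ependymal markers tested, 5 were below 0, with a median of -0.58 and 1 called (lower), by DESeq2. Both lists, at a median of 3.59 and 2.09 CPM, were highest in the third shScr library, at median deviations of 1.26 and 0.75. Without that library the medians were -0.13 and -0.43. Astrocyte markers spread to both sides, from -0.79 to 0.26, with 5 of 10 below 0, 7 at an unadjusted p under 0.05, 0 called by edgeR and 1 (lower) by DESeq2. Oligodendrocyte, endothelial and mural markers had medians of 0.07, 0.07 and 0.05, with 6 of 8, 5 of 8 and 6 of 10 above 0. An unadjusted p under 0.05 was found in 0, 2 and 4 of them. edgeR called 0 in each list, and DESeq2 called 1 endothelial marker (higher) and 0 in the others. Of the members, 74 of 96 lie in the shortest 25% of tested genes by length, in which the median over all genes was -0.01, the same as over all lengths.

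The genes that build and serve the complexes had a median near 0, with single genes farther from it. Of 121 genes in 10 lists (assembly factors of each complex, electron carriers, mitochondrial DNA expression, regulators of biogenesis, the citric acid cycle, and carriers and uncouplers), 119 were tested. Of these, 0 passed edgeR's test in either direction (0.116% of all genes) and 1 (lower) passed in DESeq2 (4.49% of the genes it tested). An unadjusted p under 0.05 was found in 6 of the 119, where 16.8% of all genes had one. The median log2 fold change of the 119 was 0.00, with 61 above 0, and 111 intervals lay within 1.5-fold. Within 1.2-fold lay 53 (44.5%), against 78.1% of the members and 23.1% of all genes. The 52 assembly factors tested had a median of 0.01 and 31 above 0, and ran from -0.44 to 0.45. Examples are Foxred1 and Acad9 for complex I at 0.02 and 0.05, Sdhaf2 and Sdhaf4 for complex II at -0.05 and 0.01, and Uqcc1 and Ttc19 for complex III at 0.01 and 0.12. For complex IV, Coa5 had 0.11 and Higd1a 0.02, and for complex V, Atpaf1 had 0.05 and Tmem70 0.00.

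Cycs, cytochrome c itself, had 97.7, 97.8 and 102 CPM in shScr and 103, 104 and 103 CPM in shFabp7; the groups did not overlap, and its log2 fold change was 0.06 ± 0.05 (SE). Gpd2, which feeds electrons from glycerol 3-phosphate, had -0.02. Of 14 citric acid cycle genes 7 were above 0, and all 14 intervals lay within 1.2-fold. Ogdh, of the 2-oxoglutarate dehydrogenase complex, had 0.04. The adenine nucleotide carrier Slc25a4 had 0.06 and the outer membrane channel Vdac1 -0.01.

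Genes that express mitochondrial DNA had 10 of 23 above 0 and a median of -0.04. Polg, the mitochondrial DNA polymerase, had 0.06 ± 0.06 (SE), and Lrpprc, which stabilises mitochondrial mRNAs, -0.14 ± 0.07. The 7 abundant mitochondrial transcripts were above 0 while these genes lay on both sides of it.

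The regulators of biogenesis, transcription factors and coactivators that drive nuclear members, had the widest values of the 10 lists. An unadjusted p under 0.05 was found in 3 of 11, where 16.8% of all genes had one. Esrra, an orphan nuclear receptor that acts with PGC-1 coactivators, had 51.8, 62.7 and 53.6 CPM in shScr and 62.2, 68.5 and 64.1 CPM in shFabp7. The second shScr library overlapped the shFabp7 range, and the log2 fold change was 0.21 ± 0.08 (SE) with an adjusted p of 0.243 in edgeR's test. Without that library it was 0.30 and passed. Yy1 had 0.01. Esrrb and Pprc1 are named after their values were seen. Esrrb, a related receptor at a low level, had 1.47, 2.02 and 1.64 CPM in shScr and 2.33, 3.10 and 2.35 CPM in shFabp7, all higher, at 0.60 ± 0.25 and an adjusted p of 0.266 in edgeR's test. Pprc1, a coactivator of the PGC-1 family, had 32.5, 31.9 and 30.3 CPM in shScr and 24.2, 23.5 and 23.3 CPM in shFabp7, with no overlap between the groups. Its log2 fold change was -0.42 ± 0.08, with an adjusted p of 0.0656 in edgeR's test and 0.00981 in DESeq2. The nuclear members had a median of -0.01 in the same libraries.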

How the data were processed

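The authors deposited 1 table of raw, unscaled read counts per gene for each of the 6 samples, laid out as featureCounts writes them. Named in the submitters' processing notes, without role or order, are STAR 2.5.2b, Trimmomatic 0.36, DESeq2, Subread 1.5.2 and GRCm39. Gene positions in the files matched a GRCm38 annotation (GENCODE M21) for 91.4% of gene IDs and are read as GRCm38. Among the 96 members, 77 had the same start and end in both. Per the labels' protocols, a stranded mRNA kit and 0.5 µg of total RNA were used. Whether counting used strand is not stated in these sources, so a gene and an antisense partner cannot be told apart. Separate animals are not stated for the samples, so p-values reflect only how these samples spread.

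Counts were filtered with filterByExpr, scaled by TMM and tested with edgeR 4.0.16 in R 4.3.3 (robust quasi-likelihood fit, group alone, two-sided). Each SE was obtained from the fold change and the F statistic, and intervals are 95%. Library deviations used log2 CPM with a prior count of 2. A member with few reads has a wide interval, but among well-counted members the SE differed little with depth. The median SE was 0.064 for the 7 abundant mitochondrial genes (median 4400 CPM) and 0.070 for the 83 nuclear members (median 61.8 CPM). DESeq2 1.42.0, limma 3.58.1 (voom) and other scalings, filters, covariates and subsets of libraries were the alternatives. The script was tested on simulated counts.

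The members and all lists were chosen with earlier results of these data known. Named were all mitochondrial members, in each complex the 2 highest per kilobase and the highest and lowest by fold change, 6 isoform pairs, and the 2 most abundant genes of each pathway list. Others are said to be named after their values were seen. A gene that the rule took is not reported here. Scaling by total counts shifts the median of all genes to -0.06 on the log2 scale. Sequences are from the GENCODE M21 transcripts of the reference.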

Additional observations from a re-analysis of the deposited data

How the results depend on the processing

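In all 19 other settings 0 members passed the threshold. The number of genes that passed was 20 and became 1617 with no filter, 629 with the replicate number as a block, 7 with sex as a covariate, 43 with excitatory neuron markers as a covariate, 696 with DESeq2, 109 with limma-voom and 292 at an adjusted p of 0.1. With sex as a covariate and shFabp7 library 2 left out it was 1, a setting chosen after seeing the data. Leaving out 1 library gave 0 to 900 genes: 0 without shFabp7 library 2 or 3, 10 without shFabp7 library 1, 182 without shScr library 1 and 900 without shScr library 2. The correlations between libraries do not settle whether the replicate numbers pair the samples. Same-numbered libraries correlated at 0.08, 0.15 and 0.06 in their deviations, and differently numbered libraries of the 2 groups at -0.18 to 0.10. For shScr library 2 the best match was shFabp7 library 2. For shScr library 3 it was shFabp7 library 3, by a small margin (0.06 against 0.05). For shScr library 1 it was shFabp7 library 3 (0.10 against 0.08). Total counts without scaling factors, also chosen after seeing the data, moved the medians to -0.055 for nuclear members, -0.058 for complex I, -0.10 for complex II, -0.046 for complex III, -0.013 for complex IV and -0.074 for complex V, with the median of all genes at -0.056. Leaving out 1 library moved the complex I median between -0.028 and 0.038 (0.038 without shScr library 3) and that of complex IV between 0.011 and 0.107 (0.107 without shFabp7 library 3). The complex IV median, 0.038 as reported, was also below 0 with excitatory neuron markers as a covariate (-0.007). The mean of these markers separated the groups, so that fit cannot tell markers and group apart. Esrra passed without shScr library 2 (0.30). The cause of these shifts was not tested. Depth limits the 6 rare isoforms and the mitochondrial genes with few reads, for which changes of 1.5-fold could not be bounded in all.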

Other observations

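The promoters of nuclear members were read from RefSeq (GRCm38.p6), 250 bases before to 50 after the start, for the 65 of 83 members with an entry. Short core motifs of factors known to drive these genes were searched on both strands, as exact letters. The NRF1 core CGCATGC was present in 16.9% of the members' promoters and 4.01% of all 27025 genes with an entry, the ETS core CCGGAAG in 24.6% and 9.93%, and the YY1 core AAGATGG in 15.4% and 7.28%. Among genes tested here the shares were 6.59%, 17.5% and 7.89%. A match of letters is not a bound site. The median log2 fold change was -0.03 with and -0.01 without the NRF1 core, -0.03 and 0.00 for ETS, and 0.02 and -0.01 for YY1.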
